A study of Mus musculus with 18 samples.

Results

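Dense unmethylated CpG tiles are the stretches of the mouse genome where many CpG dinucleotides lie close together and almost none carries methylation. They were chosen from reduced representation bisulfite libraries of mammary epithelial cells: CpGs of the autosomes read at least 5 times in all 18 libraries were summed into 1 kb tiles, and tiles with 10 or more such CpGs and a mean level under 20% over the libraries were kept. The rule kept 10704 tiles, which is 14.5% of the 73632 tiles with 3 or more CpGs and 72.5% of the 14764 dense tiles. With a minimum of 10 reads per CpG it would keep 4075. They hold 195807 CpGs, or 28.8% of the 678767 CpGs measured in every library. A methylation level is the share of reads that showed a CpG as methylated, here summed over the CpGs of a tile. Since the level chose the tiles, their low level is a description and was given no test.

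All animals were C57BL/6 females with no transgene or drug named, and cells labelled as mammary epithelial stem cells, luminal progenitor cells and mature luminal cells were purified from digested glands. Each of the 3 cell types gave 1 library at each of 6 stages: virgin at week 3 and week 9, pregnant at days 10, 16 and 19, and, as the last stage, retired breeders, whose age and number of litters are not stated in the labels. A state therefore had 2 virgin, 3 pregnant and 1 retired library per cell type, with different stages standing in for replicates, and because the labels do not say which libraries came from separate mice, p-values measure only the spread between these libraries. The reads summed over CpGs ran from 17513287 in retired mature cells to 117922522 in week 9 virgin mature cells. The labelled cell types could not be checked here at their defining markers: none of the 7 basal or stem markers, 1 of 5 luminal progenitor markers (Kit), 1 of 8 mature luminal markers (Wnt4) and none of the 10 markers of other cells of the gland had a promoter that could be tied to measured CpGs.

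Clusters of CpGs in mammalian DNA are known as CpG islands. Most of the genome loses CpGs over evolution because methylated cytosine mutates easily, and islands are kept free of methylation in the germ line and in most tissues, often at the promoters of housekeeping and developmental genes. Proteins with a CXXC domain bind unmethylated CpGs there, and a small group of islands, such as those of imprinted genes and of genes used only in germ cells, is methylated in the body. MspI, the enzyme used to cut the DNA, recognises CCGG, so these libraries favour exactly such CpG-rich stretches.

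The promoters of 6 genes show what such a stretch looks like next to the rare promoter whose CpGs are dense and methylated. The first 4 lie in dense unmethylated tiles and were chosen for their gene's role: Cdkn1b encodes the cell cycle inhibitor p27, Stat5b a transcription factor of prolactin signalling, Dnmt1 the maintenance DNA methyltransferase and Six2 a homeobox factor whose neighbouring tiles differed between virgin and pregnant stem cells. The last pair, Slc25a31 and Dmrtb1, are testis genes in dense methylated tiles. Each line holds the 150 bases before the start site, 5′ to 3′ on the strand of the gene, as in RefSeq for build GRCm38.p6, and capitals mark the CpGs that were read at least 5 times in all 18 libraries.
Cdkn1b: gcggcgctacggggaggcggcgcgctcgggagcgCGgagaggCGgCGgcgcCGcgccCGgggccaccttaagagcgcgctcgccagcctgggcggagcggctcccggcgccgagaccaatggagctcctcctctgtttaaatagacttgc
Stat5b: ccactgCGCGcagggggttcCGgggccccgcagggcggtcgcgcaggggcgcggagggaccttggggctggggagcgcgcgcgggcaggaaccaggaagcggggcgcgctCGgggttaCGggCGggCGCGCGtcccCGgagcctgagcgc
Dnmt1: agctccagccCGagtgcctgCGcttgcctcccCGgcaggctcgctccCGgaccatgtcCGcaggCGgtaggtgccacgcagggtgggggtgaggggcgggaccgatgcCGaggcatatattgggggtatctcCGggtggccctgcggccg
Six2: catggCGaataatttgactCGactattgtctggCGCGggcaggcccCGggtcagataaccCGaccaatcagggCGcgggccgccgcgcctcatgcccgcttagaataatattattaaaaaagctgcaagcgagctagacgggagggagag
Slc25a31: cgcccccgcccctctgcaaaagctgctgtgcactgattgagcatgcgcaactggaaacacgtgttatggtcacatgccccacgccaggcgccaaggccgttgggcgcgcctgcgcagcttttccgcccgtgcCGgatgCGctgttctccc
Dmrtb1: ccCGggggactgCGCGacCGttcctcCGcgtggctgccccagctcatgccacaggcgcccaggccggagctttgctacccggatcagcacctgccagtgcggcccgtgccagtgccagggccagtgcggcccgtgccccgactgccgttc
By matching their CpG spacing to the CpG positions in the files, these stretches were placed in mm9 at chr6:134870269-134870418 (plus strand) for Cdkn1b, chr11:100711896-100712045 (minus) for Stat5b, chr9:20757068-20757217 (minus) for Dnmt1, chr17:86087595-86087744 (minus) for Six2, chr3:40512643-40512792 (plus) for Slc25a31 and chr4:107356195-107356344 (minus) for Dmrtb1. Over the CpGs in capitals, the mean level was 0.0837% at Cdkn1b (5 CpGs), 0.169% at Stat5b (10 CpGs), 0.0116% at Dnmt1 (8 CpGs) and 0.554% at Six2 (7 CpGs). The highest library reached 3.22% at Six2 and 1.86% at Stat5b. At Slc25a31 the 2 CpGs in capitals averaged 93.8% and at Dmrtb1 the 5 CpGs averaged 94.5%, with no library under 69.1% at either gene. Counted over all letters of the 150 bases, CG occurs 14 times at Slc25a31 and 15 times at Dmrtb1, against 14 times at Six2 and at Dnmt1, 23 times at Cdkn1b and 24 times at Stat5b.

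Tiles with dense CpGs were found at the extremes of methylation and seldom between them. Of the 14764 dense tiles, 10395 lay under 10% and 2589 at 90% or more, while the decade from 50 to 60% held 58. Among the dense unmethylated tiles the median mean level was 0.278%, with a quartile range from 0.146 to 0.885%. A level under 1% was found in 8220 tiles (76.8%), from 1 to 5% in 1796, from 5 to 10% in 379 and from 10 to 20% in 309. In 9169 tiles (85.7%) every library was under 5%, and in 246 at least 1 library reached 20% or more. At the threshold, the tile just inside was chr2:165389001-165390000 at 19.99%, with libraries from 4.51 to 28.9%, and the one just outside was chr1:120961001-120962000 at 20.04%, with libraries from 6.57 to 35.7%.

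**Figure D1:**
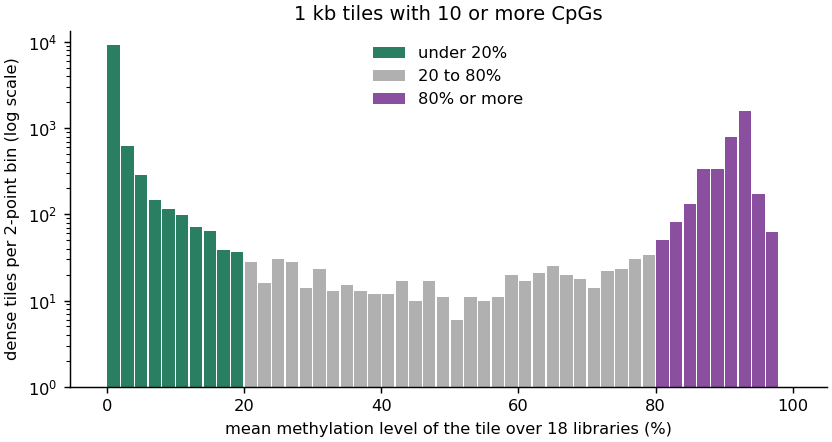
Number of dense 1 kb tiles (log scale) in each 2-point bin of the mean methylation level over 18 libraries, coloured by level class. Most of the 14764 tiles fall under 10% (10395) or at 90% or more (2589).

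The more CpGs a dense tile held, the more often it was unmethylated. The share of dense tiles under 20% was 63.6% with 10 to 14 CpGs, 73.8% with 15 to 19, 83.9% with 20 to 29 and 90.6% with 30 or more, and the median level of the kept tiles went from 0.324 to 0.227% along the same classes. By chromosome the share ran from 61.4% on chromosome 3 to 84.7% on chromosome 19. These are shares of tiles and have no replicate behind them.

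The tiles with the most CpGs were not alike in level. The most, 80 CpGs, were in chr17:39982001-39983000 at 11.3%, with libraries from 6.31 to 17.3%. It is part of the longest run described below and had a median of 292198 reads per library. The tile chr11:85048001-85049000, at the promoters of Appbp2 and its antisense RNA Appbp2os, held 67 CpGs at 0.0780%, and no library exceeded 0.169%. The tile chr1:193220001-193221000, at the promoter of Ppp2r5a, a regulatory subunit of the phosphatase PP2A, held 69 CpGs at 3.77%, with libraries from 1.40 to 7.43%. A pair of tiles on chromosome 18, at chr18:11054001-11055000 (71 CpGs) and chr18:81183001-81184000 (69 CpGs), averaged 1.35 and 0.620%.

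Most tiles stood alone. The 10704 tiles formed 8730 runs of adjacent tiles, of which 6958 were a single tile, 1591 had 2 tiles and 164 had 3, and 35.0% of the tiles were in runs of 2 or more. The longest run, chr17:39980001-39986000, had 6 tiles, 263 CpGs and a mean level of 12.2%, and its library means ran from 7.03 to 17.4%. It was read far more deeply than the rest, with a median of 134891 reads per tile against 773.5 over all members, and it held between 6.74 and 10.8% of all member reads of a library. No promoter was placed in it, and whether all its reads come from this place in the genome was not tested. The run chr7:90014001-90019000 had 5 tiles with 85 CpGs, a mean of 2.52% and the promoter of Mex3b, which encodes an RNA-binding protein, and chr12:109240001-109245000 had 5 tiles with 64 CpGs at 1.00%.

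Over all dense unmethylated tiles the 18 libraries lay close together. The mean of the tile levels was 1.23% ± 0.122 (SD, n = 18), lowest in day 19 pregnant stem cells at 1.02% and highest in retired mature cells at 1.49%. In stem cells the virgin libraries had 1.22 and 1.34%, a mean of 1.28% ± 0.0897 (SD, n = 2), the pregnant libraries had 1.12% ± 0.0788 (SD, n = 3) with none above 1.17%, and the retired library had 1.22%. The virgin and pregnant stem libraries do not overlap. In progenitor cells virgin libraries had 1.23% ± 0.0738 (SD, n = 2) and pregnant ones 1.23% ± 0.0946 (SD, n = 3), and in mature cells they had 1.18% ± 0.133 (SD, n = 2) and 1.24% ± 0.167 (SD, n = 3). Both pairs overlap. Retired progenitor cells had 1.37% and retired mature cells 1.49%, the latter above every other library.

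Depth differed widely between the libraries. The means of the 8 shallowest libraries ran from 1.02 to 1.49% and those of the 10 deepest from 1.09 to 1.34%, so they overlap. The median reads per tile went from 267 in retired mature cells to 1780 in week 9 virgin mature cells, and the median level over the tiles was 0 in the 4 shallowest libraries (day 16 pregnant progenitor and the 3 retired) and at most 0.367% elsewhere. A count of 0 in a tile of median depth allows a level of up to 1.12% in the shallowest library and 0.169% in the deepest (3 reads of the total, counting error only). Between 669 tiles (6.25%, week 9 virgin progenitor) and 5906 (55.2%, retired progenitor) showed no methylated read. The part of depth in the differences between libraries was not tested. The same libraries also differed outside these tiles: over tiles with 3 to 9 CpGs under 20%, virgin stem libraries averaged 4.54 and 4.78%, and pregnant stem libraries 3.21, 3.00 and 3.33%.

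**Figure D2:**
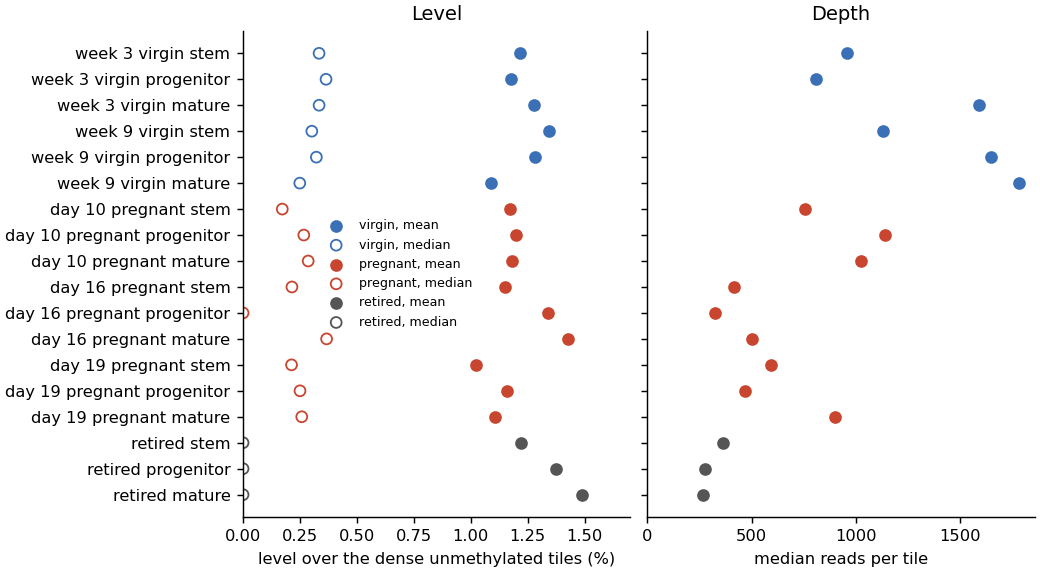
Left, mean (filled) and median (open) methylation level in percent over the 10704 dense unmethylated tiles in each of the 18 libraries; right, the median reads per tile. Means lie between 1.02 and 1.49%, and the 4 libraries with a median of 0 are the shallowest.

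Single tiles varied less between libraries than other kinds of tile. The median SD over the 18 libraries was 0.306 percentage points in dense unmethylated tiles, 1.11 in unmethylated tiles with 3 to 9 CpGs, 1.44 in dense tiles at 80% or more and 5.40 in dense tiles from 20 to 80%. A level close to 0 has little room to vary. The dispersion of the fit by cell type and state, which sets the spread against the counting error at that level, had a median of 1.81 in dense unmethylated tiles, 1.78 in the sparse unmethylated tiles, 1.43 in the dense methylated and 5.59 in the dense middle tiles. A range of 10 points or more was reached by 518 tiles (4.84%), against 56.8% of all tiles tested, and a range of 20 points or more by 97.

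The largest ranges belonged to a few tiles at the upper end of the level. The tile chr2:163165001-163166000 ran from 3.79% in retired progenitor cells to 50.3% in day 10 pregnant stem cells. At chr8:107792001-107793000 the lowest library was day 16 pregnant stem at 2.92% and the highest retired mature at 49.3%, with a median of 12.6%. Retired mature cells were also highest at chr2:173239001-173240000 (43.9%, lowest 6.58%) and at chr5:129203001-129204000 (42.0%, lowest 5.79%).

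The other wide tile, chr12:112776001-112777000, lies at the promoter of Eif5, which encodes a translation initiation factor, and shows what a tile mean can hide. Its libraries ran from 0.399 to 37.2%, and the 3 day 19 libraries were the lowest, at 0.399% in stem, 0.665% in progenitor and 0.771% in mature cells. Of its 15 CpGs, 13 had mean levels of at most 0.667%. The other 2 CpGs, 10 bp apart, had 68.2 to 95.3% in the 15 libraries of other stages and 0 to 33.3% in the day 19 libraries, where they were read 5 to 18 times against 27 to 205 times elsewhere. The part of this low depth in the day 19 values was not tested.

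Methylated CpGs like these were rare inside dense unmethylated tiles. Of the 195807 CpGs, 2208 had a mean level of 20% or more, 536 (0.274%, in 292 tiles) 50% or more, and 110 (in 74 tiles) 80% or more. With a minimum of 10 reads the 536 became 138. Over the 536 CpGs the library means ran from 64.9% in day 19 pregnant stem cells to 70.3% in retired progenitor cells, with a mean of 68.1% ± 1.59 (SD, n = 18). The methylated CpGs were more frequent at the ends of a run of tiles. The mean level was 2.55% at the first measured CpG from either end, 1.93% at the next, 1.47% at the third and 0.821% over ranks 6 to 10, and the share at 50% or more went from 0.997 to 0.104% over the same ranks. The first CpG was above ranks 6 to 10 in every library: its library means ran from 2.23 to 2.91%, and those of ranks 6 to 10 from 0.701 to 0.981%.

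Outside the tiles, the level went up within 2 kb. Tiles 1 kb away that were not themselves dense and unmethylated averaged 13.0% ± 0.395 (SD over libraries, n = 18), with a median of 0.955%, and 80.5% of them lay under 20%. With a minimum of 10 reads per CpG, chosen after seeing the data, that mean was 7.68%. At 2 kb the mean was 47.1% ± 0.864, at 3 kb 52.6% ± 0.893 and at 10 kb 60.5% ± 1.07 (SD, n = 18 each). The 172308 tiles outside the set with 1 or more CpG measured in every library, the flanking tiles included, averaged 72.3%. The level at 10 kb was still lower. Distances were taken from any run of dense unmethylated tiles, not from the nearest one, so a tile can count at several distances. Tiles at 10 kb can thus lie close to another run, and 22.8% of them were under 20%. The library means did not overlap between 1, 2 and 3 kb, where they ran from 12.1 to 13.8%, from 45.3 to 48.5% and from 50.5 to 54.0%, and day 19 pregnant stem cells were lowest at every distance from 1 to 10 kb.

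**Figure D3:**
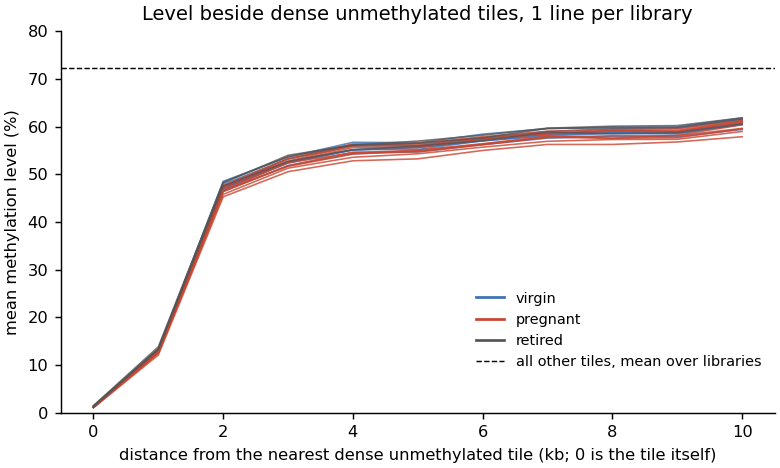
Mean methylation level in percent, 1 line per library, against the distance in kb from a dense unmethylated tile, with the tiles themselves at 0 and the mean of all other measured tiles dashed. The lines go from 12.1 to 13.8% at 1 kb to 45.3 to 48.5% at 2 kb and then flatten. Although the axis names the nearest tile, distances were taken from any run of such tiles.

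Start sites of genes were common in these tiles. RefSeq promoters, each 250 bases before and 50 after a start site, were placed in mm9 where at least 8 of their CpGs fell on measured CpGs in the same spacing, and 7121 of 31396 could be placed and kept. The table covers 18 of the 19 autosomes, and promoters of chromosome 18 were not used here. Of the 7121, 4978 (69.9%, 4462 gene symbols) were in dense unmethylated tiles, 36 in dense tiles from 20 to 80%, 3 in dense tiles at 80% or more (Slc25a31, Dmrtb1 and the predicted gene Gm30645) and 2104 in tiles with fewer CpGs. Of the 5017 promoters in dense tiles, 99.2% were thus in unmethylated ones. A placed promoter was found in 38.2% of the dense unmethylated tiles, in 5.93% of the dense middle tiles and in 0.0882% of the dense methylated tiles. Within the dense unmethylated tiles the share was 43.0% under 1%, 23.9% from 1 to 5%, 20.5% from 5 to 10% and 16.4% from 10 to 20%. Placement needs measured CpGs, so the shares of tiles with a placed promoter are lower limits, while the shares of placed promoters are not. The share of dense unmethylated tiles with a placed promoter was 29.2% at 10 to 14 CpGs and 52.2% at 30 or more.

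The promoters in these tiles have the letters of CpG islands. Their median GC content was 68.7% and their median number of CpGs per 300 bases 30, against 52.7% and 7 over all 32851 promoters in the table, and placement itself requires CpGs. Searched on both strands, the GC box GGGCGG bound by Sp1-like factors was in 82.1% of them and in 35.7% of all promoters. The TATA motif TATAAA was in 3.35% against 13.6%, the CCAAT box CCAAT in 31.3% against 37.4%, the ETS motif CCGGAAGT in 9.86% against 3.89%, the palindromic NRF1 motif in 2.49% against 0.971%, the CRE TGACGTCA in 3.29% against 1.79% and the E-box CACGTG in 10.7% against 7.15%. Several of these motifs contain CG, which a CpG-rich window holds more often. No motif listed contains another. Placed promoters in tiles with fewer CpGs had the GC box in 77.0% and TATAAA in 4.23%, close to the values in the dense tiles.

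Genes that write, erase or read DNA methylation had their promoters in dense unmethylated tiles whenever they were placed. Of 18 such genes 9 were placed, all 9 in these tiles, with a median level of 0.123%. Among all placed promoters 69.9% were in these tiles, with a median tile level of 0.208%. The 9 genes were Dnmt1 (0.0909%), Dnmt3a (0.249%) and Dnmt3b (0.123%), the methyltransferases, Tet2 (0.0732%) and Tet3 (0.813%), which oxidise methylcytosine, Uhrf1 (0.0735%), which brings Dnmt1 to replicated DNA, Kdm2b (0.104%) and Kmt2a (0.256%), which carry CXXC domains, and Tdg (4.59%), the glycosylase that removes oxidised methylcytosine. The tile of Tdg stood apart from the others, with libraries from 1.22 to 12.1%, while the highest library of Tet2 was 0.229%.

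Most placed Polycomb subunits and 6 of 11 placed developmental transcription factors lay in dense unmethylated tiles, against 69.9% of all placed promoters. Of 7 placed Polycomb genes 6 were in dense unmethylated tiles, from 0.120% at Suz12, a core subunit of Polycomb repressive complex 2, to 0.931% at Ring1, a ubiquitin ligase of Polycomb repressive complex 1. The developmental factors, which are Polycomb targets in many tissues, were Sox2 (0.370%), Six2 (0.512%), Pax2 (0.574%), Nkx6-1 (1.31%), En1 (3.91%) and Msx1 (8.92%). Msx1, a homeobox gene used in mammary bud formation, ran from 3.46 to 15.8% over the libraries, and En1 from 2.09 to 7.38%. The ranges of Msx1 and En1 overlap, and the lowest library of Msx1 lies above the highest of Sox2, at 2.59%.

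Regulators of the mammary lineage and of the cell cycle were close to 0. So were placed promoters in dense unmethylated tiles as a whole, with a median tile level of 0.208%. Of all placed promoters, 69.9% lay in such tiles. Of 10 placed lineage regulators 7 were in dense unmethylated tiles: Tcf7l1 (0.106%), Notch3 (0.112%), Stat5b (0.136%), Id4 (0.159%), Wnt4 (0.221%), Gata3 (0.226%) and Jag2 (0.320%), and no library exceeded 1.08% at any of them. Gata3 is the transcription factor of the luminal fate and Wnt4 a ligand made by luminal cells in response to progesterone. Of 7 placed cell cycle genes 5 were in these tiles, from Cdkn1b at 0.0930% to Cdkn2a, the gene of p16 and p19, at 0.957%. Of the 14 housekeeping genes only Polr2a (0.431%) and Ppia were placed, the latter in a tile with 1 CpG.

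Germline genes were the exception. Of 12 listed 6 were placed and none in a dense unmethylated tile: Slc25a31 was in a dense tile at 93.8%, and Hormad1, Mael, Sycp1, Tex101 and Ddx4 were in tiles with fewer CpGs at 66.2 to 93.4%. The values of Ddx4 (66.2%) and Sycp1 (89.1%) rest on 1 CpG each. Promoters in dense tiles from 20 to 80% included imprinted Plagl1 and Hymai (1 tile, 43.5%), Mcts2 (44.8%) and Commd1 (40.1%), and germline genes Boll (46.9%), Sycp2l (20.9%) and Hormad2 (60.5%). These last 7 were named after their values were seen.

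**Figure D4:**
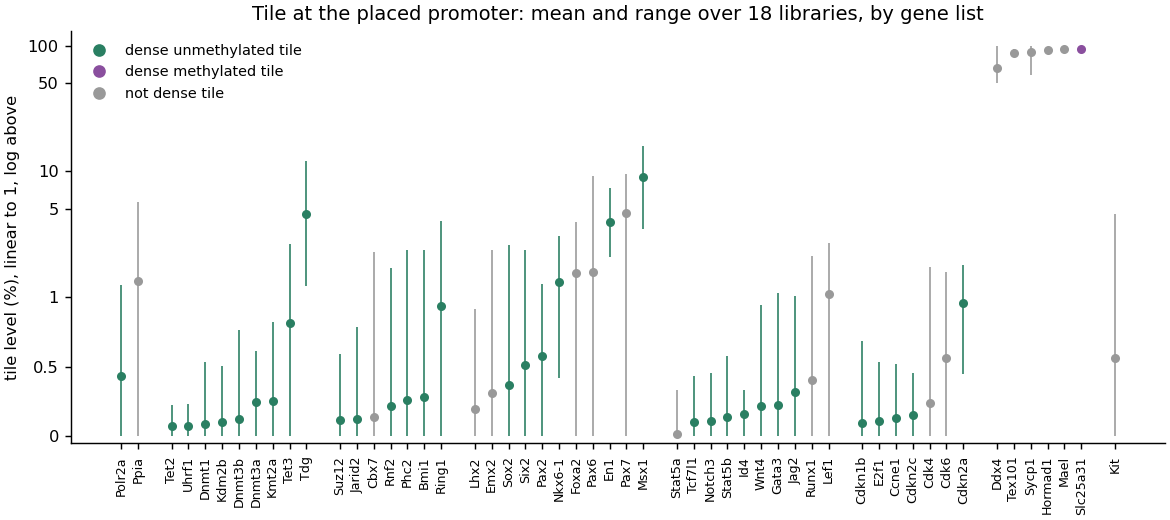
Methylation level in percent of the tile at each placed promoter (linear to 1, log above), ordered within each gene list, with the dot at the mean and the bar at the range over 18 libraries. Genes in dense unmethylated tiles lie under 10%, and the 6 placed germline genes at 66.2% or more, the lowest being Ddx4 with 1 CpG.

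Pregnant stem cells were compared with virgin stem cells to ask whether pregnancy altered these tiles. Few passed the test: 13 of the 10704 dense unmethylated tiles (0.121%) changed, 10 lower and 3 higher in pregnant stem cells, at an adjusted p under 0.05 by quasi-binomial regression with Benjamini-Hochberg adjustment over all tiles. Over all 73632 tiles, 327 were called (0.444%), 0.322% lower and 0.122% higher, so the share among the dense unmethylated tiles was below that background. Of the 13, 6 also differed by 10 points or more, which is 0.0561% of the dense unmethylated tiles against 0.42% (309) of all tiles. With a mean level under 1%, as in 8220 of the dense unmethylated tiles, such a difference cannot occur. The rule that chose the tiles thus fixed part of this gap in advance. At an unadjusted p under 0.05 there were 1178 tiles (11%), against 14.6% of all tiles. Virgin and pregnant stem libraries did not overlap at 2351 tiles (22.0%), all 13 included, against 26.3% of all tiles. The median difference was -0.07 points in these tiles and -0.22 over all tiles. The count rests on single libraries: it was 0 without week 3 or week 9 virgin progenitor, week 9 virgin stem, day 10 or day 16 pregnant stem or day 16 pregnant progenitor, 1 without day 16 pregnant mature, 2 without day 10 or day 19 pregnant progenitor, 32 without day 19 pregnant mature, 62 without either virgin mature library and 78 without week 3 virgin stem. No tile was called by limma on log2 ratios (696 or 6.5% at an unadjusted p under 0.05, against 11.4% of all tiles).

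The largest rise was at chr2:163165001-163166000, a tile of 18 CpGs whose nearest placed promoter, that of Oser1, is 79206 bp away. The virgin stem libraries had 6.50% at week 3 and 6.56% at week 9. The pregnant stem libraries had 50.3% at day 10, 43.8% at day 16 and 39.2% at day 19. The mean rose from 6.53% ± 0.0447 (SD, n = 2) to 44.4% ± 5.55 (SD, n = 3), by 37.9 points (adjusted p = 0.0418, quasi-binomial regression). The size and the call depended on the read filter. With a minimum of 10 reads per CpG the rise was 25.8 points (adjusted p = 0.0845, quasi-binomial regression). With any CpG of 5 reads in a library it was 31.6 points (adjusted p = 0.0765, quasi-binomial regression). All 3 pregnant stem libraries lay above the other 15. The retired stem library, from 281 reads, had 19.2% (95% Wilson interval 15.0 to 24.2%), between the groups. Progenitor and mature libraries had 3.79 to 24.5%, the highest being week 9 virgin mature. All 18 CpGs of the tile had a higher mean in pregnant than in virgin stem cells, by 12.7 to 60.7 points.

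The other rises were small in points. At chr5:120289001-120290000 (20 CpGs) virgin stem cells had 2.54 and 1.41% and pregnant stem cells 6.34, 8.02 and 4.95%, a rise of 4.46 points (adjusted p = 0.0418, quasi-binomial regression). Here the virgin stem libraries were the 2 lowest of all 18, and progenitor and mature cells had 2.66 to 5.55%, below the day 10 and day 16 stem libraries and overlapping the day 19 one. At chr16:30063001-30064000 (23 CpGs) the stem libraries went from 0.782 and 1.03% to 5.88, 6.65 and 2.50%, a rise of 4.11 points (adjusted p = 0.0360, quasi-binomial regression). Progenitor and mature cells had 0.231 to 2.95% there. These rises were uneven along the tile: 13 of 20 CpGs were higher and 6 lower on chromosome 5, and 7 of 23 were higher and 4 lower on chromosome 16, where 1 CpG differed by 29.95 points.

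Among the falls, a pair of tiles flanked the Six2 promoter on chromosome 17. At chr17:86080001-86081000, 6594 bp from the placed Six2 promoter, virgin stem cells had 13.6 and 22.4% and pregnant stem cells 4.97, 6.81 and 4.18%. The mean fell by 12.7 points (adjusted p = 0.0372, quasi-binomial regression), and the virgin stem libraries were the 2 highest of the 18, above the 3.25 to 7.16% of progenitor and mature cells. At chr17:86091001-86092000, on the other side of that promoter and 3159 bp from the placed promoter of CJ186046Rik, virgin stem cells had 13.8 and 22.5% and pregnant stem cells 6.69, 3.91 and 7.14%, a fall of 12.3 points (adjusted p = 0.0453, quasi-binomial regression). There progenitor and mature cells had 2.91 to 15.8%. The first 3 of the 11 CpGs of this tile averaged 22.8, 31.0 and 23.1%, and no other exceeded 6.50%. Of the CpGs, 9 of 10 were lower in pregnant stem cells at the first tile and 11 of 11 at the second. Retired stem cells had 10.6 and 18.7% at the 2 tiles, outside the pregnant stem libraries of each. The tile between them that holds the Six2 promoter, whose sequence is printed above, stayed at 0.512% over the libraries, with none above 2.36%.

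Further falls of more than 10 points were found at chr10:77127001-77128000, chr11:4964001-4965000 and chr5:132092001-132093000. On chromosome 10 virgin stem cells had 15.7 and 18.2% and pregnant stem cells 4.18, 6.33 and 6.19%. This fall of 11.4 points (adjusted p = 0.0360, quasi-binomial regression) left the pregnant stem libraries within the range of the mature cells, and the retired stem library was at 4.15%. On chromosome 11, 5870 bp from the promoter of the Ras-like gene Rasl10a, the values were 14.5 and 15.4% in virgin and 2.75, 2.88 and 5.38% in pregnant stem cells. Progenitor and mature cells had 3.28 to 19.4% on chromosome 10 and 3.35 to 16.2% on chromosome 11, which takes in the virgin stem values of both. On chromosome 5 the stem values were 17.3 and 21.3% against 9.24, 8.24 and 7.09%, and the pregnant stem libraries were the 3 lowest of all 18. The CpGs of these tiles mostly moved together, with 14 of 14 lower on chromosome 10, 11 of 12 on chromosome 11 and 15 of 17 on chromosome 5. The adjusted p was 0.0481 on chromosome 11 and 0.0397 on chromosome 5 (quasi-binomial regression).

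**Figure D5:**
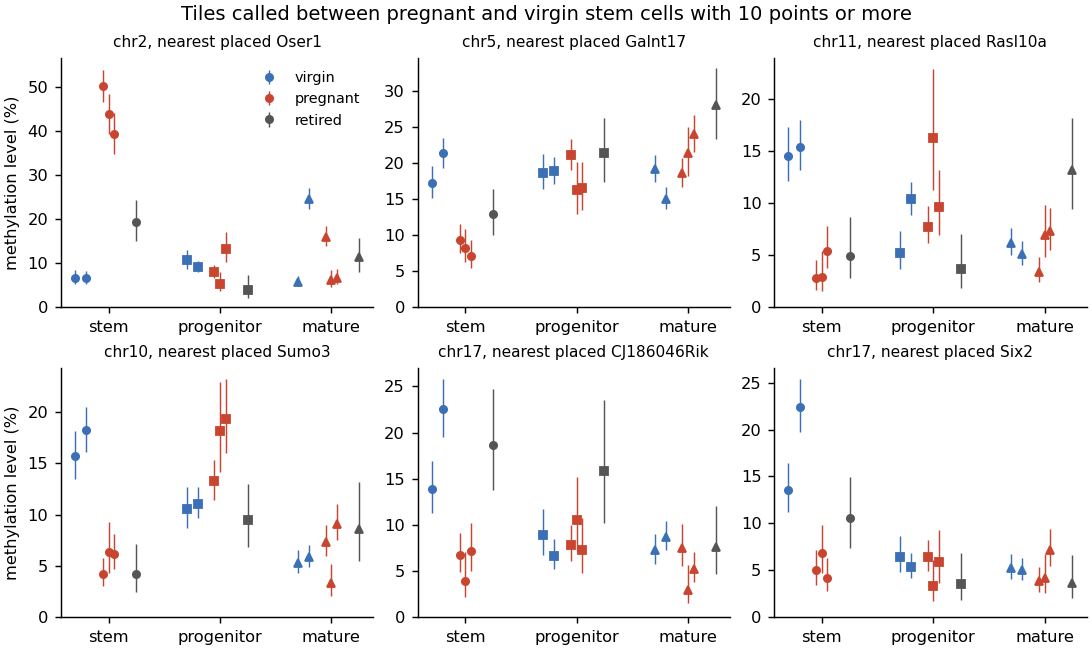
Methylation level in percent of the 6 dense unmethylated tiles that differed by 10 points or more between virgin and pregnant stem libraries and passed the test, 1 point per library with its 95% Wilson interval, by cell type and coloured by state. In stem cells the virgin and pregnant points do not overlap in any panel.

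The other 5 called tiles fell by less than 5 points, and 2 of them hold a placed promoter. At the promoter of BC034090, a gene with little known of its function, in chr1:157091001-157092000 (33 CpGs), virgin stem cells had 2.66 and 2.62% and pregnant stem cells 0.131, 0.393 and 0.355%, and retired stem cells had 0.141%. The fall was 2.35 points (adjusted p = 0.0420, quasi-binomial regression), and progenitor and mature cells had 1.25 to 3.83%. The tile of the predicted gene Gm38882 fell by 3.01 points, and chr17:28278001-28279000, 254 bp from the promoter of Scube3, which encodes a secreted signalling protein, fell by 4.38 points to 0.756% ± 0.668 (SD, n = 3). Of the remaining pair, chr8:125748001-125749000 fell by 4.56 points and chr9:57544001-57545000 fell by 4.31 points. Lower CpGs were 17 of 33 at BC034090 (3 higher), 11 of 17 near Scube3 (1 higher) and 7 of 10 on chromosome 9 (1 higher). At Gm38882 they were 6 of 26 (5 higher), and on chromosome 8 they were 3 of 13 (2 higher). The largest fall of a single CpG was -36.6 points at Gm38882 and -26.9 points on chromosome 8. At 7 of the 10 falls and 1 of the 3 rises, neither the virgin nor the pregnant stem libraries lay outside all other libraries. At BC034090 and on chromosome 8 this was due only to the retired stem library, at 0.141 and 6.14%. Pregnant stem libraries at BC034090 lay below all progenitor and mature libraries. Virgin stem libraries on chromosome 8 lay above all of them, the highest of which was 2.74%. At 7 of the 13 tiles the value of retired stem cells was closer to the mean of pregnant than of virgin stem cells.

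None of these changes was shown to be limited to stem cells. No dense unmethylated tile was called when the effect of pregnancy in stem cells was set against that in progenitor cells (percent called over all tiles 0) or in mature cells (0). At an unadjusted p under 0.05 there were 802 tiles (7.49%, against 10.6% of all tiles) for progenitor and 900 (8.41%, against 11.7%) for mature cells. At the 13 tiles the adjusted p of these differences was 0.159 or more against progenitor cells and 0.0796 or more against mature cells (quasi-binomial regression).

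In every other comparison the count of called dense unmethylated tiles was 0, and so was the percentage over all tiles. At an unadjusted p under 0.05 there were 600 tiles (5.61%) between pregnant and virgin progenitor cells, against 3.74% of all tiles, 641 (5.99% against 5.08%) in mature cells and 917 (8.57% against 6.59%) for pregnant against virgin averaged over cell types. The cell types gave 1015 (9.48% against 9.53%) for stem and progenitor, 1104 (10.3% against 11.2%) for stem and mature and 736 (6.88% against 6.05%) for progenitor and mature cells. Week 9 against week 3 virgin gave 883 (8.25% against 6.37%). Retired breeders gave 445 (4.16% against 5.25%) against virgin and 305 (2.85% against 4.78%) against pregnant animals, each averaged over cell types. By limma on log2 ratios 5 tiles (0.0467%, against 85 or 0.115% of all tiles) were called between retired and virgin, 1 (0.00934%, against 136 or 0.185%) between retired and pregnant, and 0 in the rest. Retired, virgin and pregnant comparisons share libraries and are not independent of each other. With 1 retired library per cell type, the retired groups add nothing to the estimated spread, which comes from virgin and pregnant libraries alone.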

How the data were processed

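Reduced representation bisulfite sequencing (MspI digestion, per the labels' protocols) was deposited as 1 table per library, giving for each CpG the methylated and total read counts that the authors made. Positions are in mm9, per the submitters' processing notes; the aligner and caller were not given in the sources used here. Of 1485193 CpGs listed, 678767 autosomal ones had 5 reads or more in all 18 libraries. Methylated and total reads were summed per 1 kb tile, and 73632 tiles with 3 or more CpGs were fitted by logistic regression with a quasi-binomial dispersion (moderated over tiles, never under 1), an F test and Benjamini-Hochberg adjustment (numpy 2.4.6, scipy 1.17.1, numba 0.67.0). The model had 9 groups of cell type by state, or cell type plus stage for the cell type and week comparisons. The fit was tested on simulated data. limma 3.58.1 on log2((methylated + 1)/(unmethylated + 1)) was an alternative, as were a minimum of 10 reads, 500 bp tiles, coverage limits and leaving out each library. RefSeq promoters (GRCm38.p6) were placed by CpG spacing, with at least 8 CpGs matched, none off the pattern and a lead of 3 over the second placement; 99.5% of placements had the same shift as a neighbour and 33 that had not were left out. Exons, introns and UTRs were not assigned. Intervals and floors cover counting error only.

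The tiles named are those with the most CpGs (5), the longest runs (3), the widest range (5), those nearest the threshold, and in each comparison all called tiles or the 5 largest rises and falls. The members, lists and tests were chosen with earlier results of these data known. The 5 smaller falls in stem cells lie outside this rule and were named after their values were seen.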

Additional observations from a re-analysis of the deposited data

Results flagged for a closer look

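At 3 of the 13 tiles called in stem cells, pregnant and virgin libraries of another cell type also did not overlap, with the difference in the opposite direction. Virgin and pregnant libraries are not paired, and at all 13 called tiles those of stem cells do not overlap. At chr5:120289001-120290000 the difference between pregnant and virgin was 4.46 points in stem and -1.34 in mature cells, 5.81 points apart (adjusted p = 0.0823, quasi-binomial regression). At chr16:30063001-30064000 it was 4.11 points in stem, -1.12 in progenitor and -1.09 in mature cells, which are 5.23 and 5.20 points apart (adjusted p = 0.159 and 0.0796, quasi-binomial regression). At chr10:77127001-77128000 it was -11.4 points in stem and 6.16 in progenitor cells, so that the stem effect minus the progenitor effect was -17.6 points (adjusted p = 0.159, quasi-binomial regression). None of these 4 differences passed the threshold.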

How the results depend on the processing

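The count of 13 tiles called in pregnant against virgin stem cells became 5 with a minimum of 10 reads (4 of them among the 13), 4 with 500 bp tiles, 7 with only dense tiles tested (7 among the 13) and 0 with limma, and ran from 0 to 78 as single libraries were left out. Within the 11 files of 4 columns, an alternative chosen after seeing the data, it was 16 with 4 among the 13. File layout follows stage in part: 7 files, from day 16 progenitor, day 19 and retired libraries, have 6 columns. Leaving out single libraries gave 0 to 44 tiles for the stem against mature difference of effects, 0 to 5 for stem against progenitor, 0 to 1 for pregnancy in mature cells and 0 to 5 for stem against mature cells, and 500 bp tiles gave 1 for the stem against mature difference of effects. limma called 5 tiles for retired against virgin (85 of all tiles) and 1 for retired against pregnant (136 of all tiles). The 3 rises and the 5 largest falls in stem cells kept their sign in all 24 settings each, and 96 of those values were past the threshold and 96 not. The sign was fixed in many of these settings. Leaving out a library of another cell type leaves the difference in stem cells as it is. Leaving out a stem library cannot turn it where virgin and pregnant stem libraries do not overlap, as at these tiles. The labels give no pairing beyond stage: without the stage term (no replicate block) the cell type counts were 0, and with cell type as a replicate block the state counts were 0. The 10704 tiles became 3598 with 20 or more CpGs and 4075 with 10 reads. The mean level over libraries, 1.23%, was 2.48% with reads pooled (1.59% without the chromosome 17 run) and 0.218% as a median. With a minimum of 10 reads, added after seeing the data, the level at 1 kb was 7.68% and 138 CpGs were at 50% or more. In the shallowest library, a tile of median depth with no methylated read allows a level of up to 1.12%.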
